A study of Petromyzon marinus with 21 samples.

Results

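Embryos of the sea lamprey, the jawless vertebrate Petromyzon marinus, aged 2 days (D2) were compared with embryos aged 1 day (D1). The comparison used 6 of the 21 samples of the series, 3 biological samples at each age, and all 49 probes of the target class (43) and the reference class (6) among the 63 probes on the panel. Each sample was RNA of whole embryos, with no genotype, strain or treatment named in the labels and no number of embryos per sample given. The NanoString nCounter counts chosen transcripts directly, through a coloured barcode bound to each molecule, without amplification. Each probe reports 1 transcript, and the reference class held EF1A_A, EF1A_B, RPS9, HCFC-1, Piwi-1 and Piwi-2. Both ages were read in 1 instrument run, so no change of run lay between them. The other embryo ages (D2.5, D3, D4 and D5) were not compared. They entered the estimate of the spread between samples, the choice of probes to test and the scaling of the lanes. In whole embryos, a change in the number of cells that make a transcript and a change in its amount per cell cannot be told apart.

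In animals, the first divisions of the egg run on RNA and protein that the mother stored in it. The embryo's own genome is switched on later, while stored maternal transcripts are cleared. In the sea lamprey, cells that will form the body also discard some of the germline DNA as the early embryo develops, so that genes in the discarded part remain only in germ cells. The labels do not say how the target transcripts were picked. Roles given below for annotated transcripts are those known from other animals, mainly mouse and human. The file gives a gene name for 19 of the 43 targets and none for the other 24.

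The depth of the lanes differed within each age. D1 replicates 1, 2 and 3 held 1675, 504 and 2384 target counts, and the D2 replicates held 2295, 2956 and 589. D1 replicate 2 and D2 replicate 3 stood apart as the shallow lanes, with 181 and 124 counts of the reference EF1A_A (elongation factor 1 alpha, which brings aminoacyl-tRNA to the ribosome), against 395 to 617 in the other lanes. Background was set in each lane at 2 SD above the average of the 8 negative controls, which gave 10.8 to 17.9 raw counts. Counts were divided by a lane factor, the geometric mean of EF1A_A and HCFC-1 (a chromatin-associated regulator of the cell cycle) relative to its mean over the embryo lanes. The result is called a scaled count. On that scale the background was 38.2 in D1 replicate 2 and 34.3 in D2 replicate 3, against 10.4 to 15.8 in the other 4 lanes. The lowest value in the file, a count of 1, became 2.14 and 2.40 scaled counts in those shallow lanes and 0.818 to 1.20 in the others. Between lanes of the same age the chi-square per degree of freedom was 3.84 to 10.7, so the spread was wider than counting error.

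More of the target panel was detected in 2 of the 3 D2 lanes than in any D1 lane. Of the 43 targets, 6, 3 and 7 were above background in D1 replicates 1, 2 and 3, and 18, 32 and 3 in the D2 replicates. D2 replicates 1 and 2 therefore lay above every D1 lane, and D2 replicate 3 did not. The means were 5.33 ± 2.08 at D1 and 17.7 ± 14.5 at D2 (SD, n = 3 each), a difference of 12.3 (exact permutation test, two-sided, p = 0.4; 0.1 is the smallest that 3 against 3 can give). Without D2 replicate 2 the difference was 5.17, and without D2 replicate 3 it was 19.7. No target was above background at D1 alone. There were 25 that were above it in some D2 lane and in no D1 lane, 13 of them in at least 2 D2 lanes. All 18 targets detected in D2 replicate 1 were also detected in D2 replicate 2, which added 14 more.

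**Figure D1:**
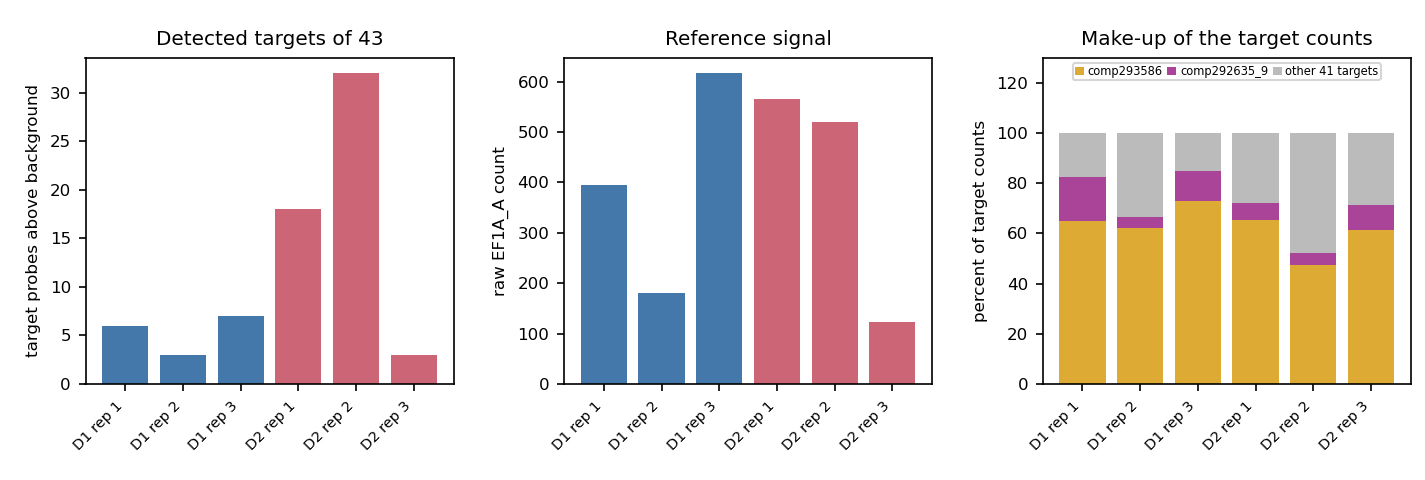
Bars show, for the 6 lanes, the number of target probes above background (left), the raw EF1A_A count (middle) and the percentage of target counts held by comp293586, comp292635_9 and the other 41 targets (right, stacked); blue is D1 and red is D2 in the left and middle panels. D2 replicates 1 and 2 had 18 and 32 detected targets against 3 in D2 replicate 3, which also had the lowest EF1A_A count, 124.

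Of the 49 probes, 43 were tested, namely those that exceeded background in 3 or more of the 18 embryo lanes (38 targets and 5 reference probes). One of them, RPS9, passed and was higher at D2 (edgeR quasi-likelihood, Benjamini-Hochberg adjusted over 43 probes), which is 2.33% of the probes tested. At an unadjusted p under 0.05 edgeR gave 9 probes higher at D2 (20.9%) and 2 lower (4.65%). The log2 fold change from D1 to D2 was positive for 36 of the 43 and negative for 7, with a median of 1.15 over all tested probes and 1.45 over the 38 targets. Of the 43 targets, 36 were above background in no D1 lane. Most of these fold changes therefore start from D1 counts under background, and the medians do not measure a general rise. Tested probes detected in some D1 lane had fold changes of both signs. The filter counts D2 and later lanes, so a probe high only there could enter. With no filter, 35 of the 43 targets were positive, with a median of 1.09. Of the 49 probes, 12 were above background in no D1 or D2 lane. Those of the 12 that were tested all had positive fold changes, at levels where no change could be measured. In 8 of the 43 (18.6%) every D2 lane was above every D1 lane, and in 2 (4.65%) every D2 lane was below. Of these 8, 7 were above background in D2 replicates 1 and 2, and 1 was above it in no D2 lane. Only RPS9 was above it in D2 replicate 3. For the rest of the 8, the order of that lane against D1 was therefore not measured. comp254454, for example, had 2 raw counts there and 2, 1 and 1 in the D1 lanes. Another 5 probes had the same order, but with a count of 1 in the lowest D2 lane, so that their order against D1 was not measured either. The number of probes that passed ran from 0 to 17 over the alternatives tried.

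**Figure D2:**
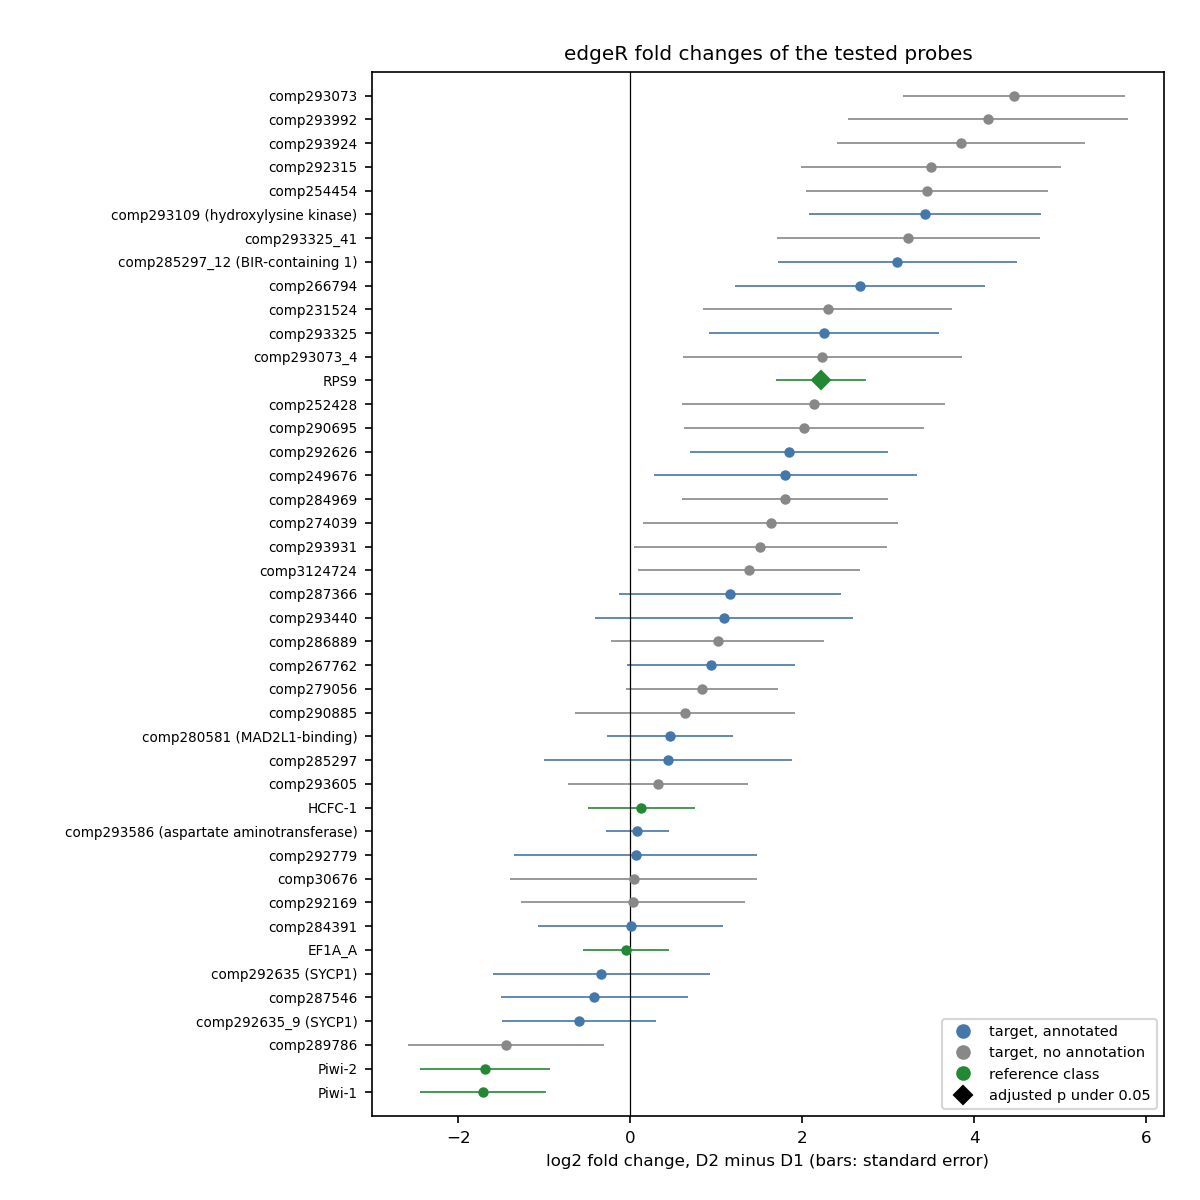
Points give the edgeR log2 fold change (D2 minus D1) of the 43 tested probes and bars its standard error, coloured by class. RPS9 is the probe that passed (diamond, 2.22), comp293073 has the highest fold change (4.46), and Piwi-1 and Piwi-2 have the lowest (−1.72 and −1.69).

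RPS9, which sits in the small subunit of the ribosome and is part of the machinery of translation, rose between D1 and D2. Its raw counts were 17, 14 and 32 in D1 replicates 1, 2 and 3, and 153, 153 and 28 in the D2 replicates. As scaled counts these were 20.4, 29.9 and 26.4 at D1 and 125, 165 and 67.3 at D2. All D2 lanes lay above all D1 lanes, and the lowest D2 lane was the shallow one. The means were 25.5 ± 4.81 and 119 ± 49.1 scaled counts (SD, n = 3 each), a 4.66-fold higher mean at D2, with an edgeR log2 fold change of 2.22 (SE 0.52, adjusted p = 0.0228). The ratio of RPS9 to EF1A_A within a lane needs no lane factor, but EF1A_A is also part of that factor. This ratio was 0.0430, 0.0773 and 0.0519 at D1 and 0.270, 0.294 and 0.226 at D2. Its geometric mean was 4.70-fold higher at D2 (exact permutation test, two-sided, p = 0.1, adjusted p = 0.144 over 13 such ratios). Against HCFC-1 the RPS9 ratio was 4.16-fold higher, and its lowest D2 value, 0.737 in replicate 3, lay above the highest D1 value, 0.492. At D1 the probe was above background in 2 of 3 lanes.

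The fold change of RPS9 was positive under all 38 settings tried, and it passed in 25 of them. Some of the 38 only left out a lane of D2.5, D3, D4 or D5, which changes the estimate of the spread. RPS9 passed in each of those, with its log2 fold change still at 2.22, so they say little about D1 and D2. The call ended in edgeR without D1 replicate 1, 2 or 3 (adjusted p = 0.175, 0.0941 and 0.123), without D2 replicate 1 or 2 (0.0757 and 0.152) and without both shallow lanes (0.0510). It also ended in edgeR with EF1A_A alone as the scale (0.16), the summed target probes (0.156), DESeq2's size factors (0.686) or TMM (0.447). The same held in edgeR with only the numbered lanes (0.0514), and in limma on scaled counts (0.126 and 0.125). The numbered lanes leave out those D4 and D5 lanes whose name holds an unexplained tag in place of a replicate number. Those tagged lanes enter the spread in the main fit.

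The other members of the translation list gave no change that passed. EF1A_A had 473, 387 and 508 scaled counts in D1 lanes and 463, 562 and 298 at D2, but the scaling rests on it and HCFC-1, so its fold change of −0.05 on the log2 scale is set largely by construction. EF1A_B, the other elongation factor probe, had 1 or 2 raw counts in every D1 and D2 lane and was not tested. HCFC-1, the other probe of the scale, had 57.5, 70.5 and 53.6 at D1 and 58.9, 48.5 and 91.4 at D2. The ratio of EF1A_A to HCFC-1 ran from 5.48 to 9.49 at D1 and from 3.26 to 11.6 at D2, with the lowest value of each age in the shallow lane.

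Both Piwi probes, of the family of small-RNA-guided proteins that silence transposons in germ cells, had lower levels at D2 in every lane, but neither passed the test. Piwi-2 (PMZ_0008779) had 49.1, 74.7 and 47.0 scaled counts in the D1 lanes and 10.6, 14.0 and 28.9 in the D2 lanes. The raw counts were 41, 35 and 57 against 13, 13 and 12, so that every lane of D1 was above background and D2 replicate 3 was not. Its mean was 57.0 ± 15.4 at D1 and 17.8 ± 9.69 at D2 (SD, n = 3 each), 3.19-fold lower at D2, with an edgeR log2 fold change of −1.69 (SE 0.75, adjusted p = 0.168). The D2 mean of Piwi-2 lay under the mean D2 background of 18.8. In D2 replicate 1 its 13 raw counts were barely above the lane's background of 12.7. Piwi-1 (PMZ_0008974) had 58.7, 36.3 and 32.1 at D1 and 15.5, 15.1 and 7.21 at D2, again without overlap. Neither shallow lane was above background, at 17 raw counts in D1 replicate 2 and 3 in D2 replicate 3, and the D2 mean lay under the mean D2 background of 18.8. The means were 42.4 ± 14.3 and 12.6 ± 4.68 (SD, n = 3 each), 3.36-fold lower at D2, with an edgeR log2 fold change of −1.72 (SE 0.73, adjusted p = 0.168). Within lanes, the ratio of Piwi-1 to EF1A_A was 0.124, 0.0939 and 0.0632 at D1 and 0.0336, 0.0269 and 0.0242 at D2. That of Piwi-2 was 0.104, 0.193 and 0.0924 at D1 and 0.0230, 0.0250 and 0.0968 at D2, where the shallow D2 lane overlapped D1. Against HCFC-1 both Piwi ratios were lower in every D2 lane than in every D1 lane, 3.64-fold and 3.65-fold in the geometric mean (exact permutation test, two-sided, p = 0.1 each, adjusted p = 0.144 over 13 ratios).

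The fold changes of both Piwi probes were negative under all 38 settings that tested them, including those that only left out a lane of another age. Both passed as lower in edgeR when only the 25 probes above background in at least 2 of the 6 lanes were tested (adjusted p = 0.0253 each), with the summed targets as the scale (0.0136 for Piwi-2 and 0.0156 for Piwi-1) and with size factors from DESeq2 (0.0146 and 0.0234). In limma on the deposited signal values Piwi-1 passed (adjusted p = 0.0461) and Piwi-2 did not (0.0814). Of the 38 settings, Piwi-2 passed in 3 and Piwi-1 in 4. With 1 of the D1 or D2 lanes left out neither passed in edgeR (adjusted p from 0.111 to 0.719 for Piwi-2 and from 0.233 to 0.628 for Piwi-1).

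Of the 6 probes on the germ line and meiosis list, 5 were tested, 1 was positive and 4 were negative, and none passed. The median log2 fold change was −0.60, against 1.15 over all 43 tested probes, but these are not like sets. The 4 negative probes, both Piwi probes, comp292635 and comp292635_9, were each detected in some D1 lane. Most of the 43 were detected in none. Tested probes outside the list that were detected in some D1 lane ran from −1.45 (comp289786) to 2.22 (RPS9). The medians therefore do not set this list apart. comp292635 and comp292635_9 also share the start of their names. SYCP1, the transverse filament protein of the synaptonemal complex that joins paired chromosomes in meiosis, is annotated on 3 target probes. comp292635_9 had 352, 44.8 and 236 scaled counts in D1 lanes and 126, 153 and 139 at D2. The D2 lanes lay close together, between the low shallow D1 lane and the other D1 lanes. Its mean was 211 ± 155 at D1 and 139 ± 13.6 at D2 (SD, n = 3 each), with an edgeR log2 fold change of −0.60 (SE 0.90, adjusted p = 0.737). comp292635 had 64.7, 6.41 and 29.7 at D1 and 18.0, 49.6 and 12 at D2, which overlapped (edgeR log2 fold change −0.34, SE 1.26, adjusted p = 0.945), though it passed as lower with DESeq2's size factors. The third SYCP1 probe, comp288706, was above background in no D1 or D2 lane and was not tested. HFM1 (comp293440), a helicase of meiotic crossing over, had a raw count of 1 in every D1 lane and 1, 5 and 1 at D2, all under background, so no change could be measured.

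The highest positive fold changes belonged to transcripts detected in no D1 lane but in both D2 replicates 1 and 2. comp293073, which carries no annotation, had a raw count of 1 in each D1 lane and 25, 46 and 9 at D2. Its scaled counts were 1.20, 2.14 and 0.824 at D1 and 20.4, 49.6 and 21.6 at D2, with no overlap. Its scaled count in D2 replicate 3 was close to that in D2 replicate 1, though 9 raw counts lay under the former lane's background of 14.3. The D2 mean of 30.6 ± 16.5 (SD, n = 3) was at least 1.34-fold above the mean D1 background of 22.9, and the edgeR log2 fold change was 4.46 (SE 1.29, adjusted p = 0.0642). Without D2 replicate 2 its D2 mean was 21.0, under that background, so that no bound remained, and the log2 fold change was 3.91. It passed as higher in 16 of the 39 settings, among them the summed target probes, TMM and DESeq2's size factors. Its fold change was positive in all 39, including those that only left out a lane of another age. The probe that shares its stem, comp293073_4, had 1, 2 and 1 raw counts at D1 and 6, 18 and 1 at D2. It was above background in D2 replicate 2 alone, and the ages overlapped (edgeR log2 fold change 2.23, SE 1.62, adjusted p = 0.419).

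The target comp285297_12, annotated as baculoviral IAP repeat-containing protein 1 (a family that includes inhibitors of apoptosis), had raw counts of 10, 5 and 9 at D1 and 58, 172 and 11 at D2. The scaled counts were 12, 10.7 and 7.42 at D1 and 47.4, 185 and 26.4 at D2, so the ages did not overlap, but D2 replicate 3 was under its background. The D2 mean of 86.4 ± 86.4 (SD, n = 3) was at least 3.78-fold above the D1 background, with an edgeR log2 fold change of 3.10 (SE 1.39, adjusted p = 0.168). Without D2 replicate 2 the bound was 1.61-fold and the log2 fold change 1.89. The other probe with this annotation, comp285297, was under background in all 6 lanes, at 2 to 4 raw counts at D1 and 2 to 8 at D2.

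D2 replicate 2 was the highest D2 lane for 36 of the 43 targets, and the values of the next 3 unannotated targets rest on it. comp293992 had 5.99, 6.41 and 2.47 scaled counts in D1 lanes and 26.2, 225 and 12 at D2, with a D2 mean at least 3.84-fold above the D1 background (edgeR log2 fold change 4.16, SE 1.63, adjusted p = 0.168). comp293924 had 2.40, 2.14 and 4.12 at D1 and 44.1, 83.0 and 4.81 at D2, at least 1.92-fold above it (3.84, SE 1.44, adjusted p = 0.168 in edgeR). comp292315 had 15.6, 2.14 and 2.47 at D1 and 37.6, 191 and 4.81 at D2, at least 3.40-fold above it (3.49, SE 1.51, adjusted p = 0.168 in edgeR), and overlapped D1 because of replicate 3. Their raw counts in D2 replicate 3 were 5, 2 and 2, in that order. Without D2 replicate 2, comp293992 and comp292315 had D2 means of 19.1 and 21.2, under the D1 background and so with no bound, and log2 fold changes of 1.98 and 1.66. For comp293924 the bound was then 1.07-fold and the log2 fold change 3.03. The D1 background itself was 15.2 without D1 replicate 2, which raised each of these bounds (to 5.76-fold for comp293992). comp254454 (2, 1 and 1 raw counts at D1, 17, 37 and 2 at D2) and comp293325_41 (1 in each D1 lane, 16, 21 and 1 at D2) completed the unannotated probes with an unadjusted p under 0.05. Their edgeR log2 fold changes were 3.45 (adjusted p = 0.168) and 3.23 (adjusted p = 0.192), and their D2 means, 19.5 and 12.7 scaled counts, lay under the mean D1 background, so that no fold is given. comp292169, unannotated and detected in all D1 lanes, had 47.9, 55.5 and 33.8 at D1 and 18.0, 94.9 and 26.4 at D2, a log2 fold change of 0.03 (adjusted p = 0.999 in edgeR).

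**Figure D3:**
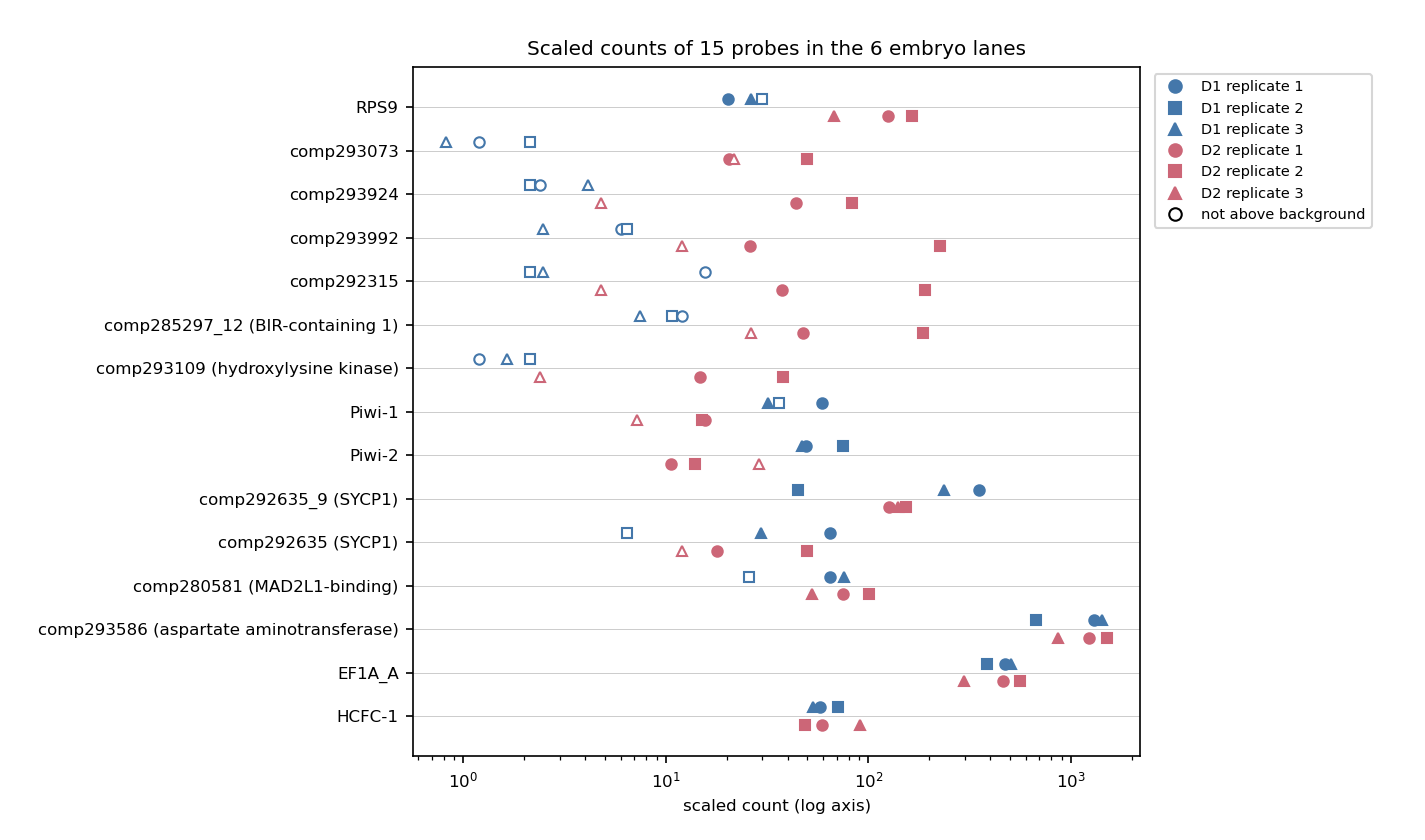
Each symbol is the scaled count (log axis) of a probe in 1 lane, blue for D1 and red for D2, with the shape giving the replicate and open symbols marking counts not above the background of the lane. RPS9 is higher in every D2 lane (67.3 to 165) than in every D1 lane (20.4 to 29.9), Piwi-1 and Piwi-2 are lower, and D2 replicate 3 (red triangles) lies near D1 for comp293924, comp293992 and comp292315.

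The amino acid metabolism list held an abundant transcript with a fold change near 0 and one detected only in D2 lanes. Aspartate aminotransferase (comp293586), which moves amino groups between aspartate and glutamate, was the most abundant target in every lane. It had 1304, 671 and 1430 scaled counts in D1 lanes and 1227, 1508 and 868 at D2, with the lowest value of each age in the shallow lane. The means were 1135 ± 407 and 1201 ± 321 (SD, n = 3 each), with an edgeR log2 fold change of 0.08 (SE 0.37, adjusted p = 0.95). Its sign depends on the scale, with −0.20 under the summed target probes, −0.81 under TMM and −1.63 under DESeq2's size factors. Per lane its share of target counts was 65.0%, 62.3% and 72.8% at D1 and 65.4%, 47.3% and 61.3% at D2. The D2 replicate 2 share had a 95% interval of 45.5% to 49.1% (Wilson, counting error only), and the lowest D1 share, in replicate 2, had 58.0% to 66.4%. Hydroxylysine kinase (comp293109), an enzyme of lysine breakdown, had 1, 1 and 2 raw counts at D1 and 18, 35 and 1 at D2 (edgeR log2 fold change 3.43, SE 1.35, adjusted p = 0.168). Its D2 mean of 18.3 scaled counts lay under the mean D1 background of 22.9, so that no bound on the fold was available.

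The shares describe how the target counts were divided within a lane and need no scaling. The SYCP1 probe comp292635_9 held 17.6%, 4.17% and 12% of target counts at D1 and 6.71%, 4.80% and 9.85% at D2. The other 41 targets together held 17.5%, 33.5% and 15.2% at D1 and 27.9%, 47.9% and 28.9% at D2. No background was taken off these counts. In the shallow lanes the 41 targets summed to 169 (D1 replicate 2) and 170 (D2 replicate 3) counts. A negative control averaged 5.5 and 5.125 counts in those lanes, so both sums were at the level of background. The shallow D1 lane lay between the D2 lanes in that last share, but its value there was not measured above background.

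The cell division and chromatin list held 4 probes, HCFC-1 among them, all with a positive fold change, as for 36 of all 43 tested, and none past the test. HCFC-1 is part of the scale, and its fold change of 0.13 was −0.13 with the summed targets, −0.44 under TMM and −1.17 under size factors from DESeq2. The target comp280581, annotated as MAD2L1-binding protein and so tied to spindle checkpoint control, had 64.7, 25.6 and 75.8 scaled counts in D1 lanes and 75.2, 101 and 52.9 at D2 (edgeR log2 fold change 0.46, SE 0.73, adjusted p = 0.745), and it was negative under TMM and DESeq2's size factors. Protein phosphatase 1D (comp267762), which switches off the DNA damage response, was below background in every D1 lane at 7, 7 and 12 raw counts and had 18, 23 and 10 at D2 (0.94, SE 0.98, adjusted p = 0.597 in edgeR). The trinucleotide repeat-containing probe comp292626, annotated as chromatin binding, had 4, 2 and 5 raw counts at D1 and 18, 28 and 1 at D2 (1.85, SE 1.15, adjusted p = 0.374 in edgeR). comp267762 and comp292626 were each above background in 2 of 3 D2 lanes.

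The 3 signalling and adhesion transcripts were below background in every D1 lane. WNT-5a (comp249676), a secreted signal that shapes cell movement in embryos, had 1, 2 and 1 raw counts at D1 and 4, 13 and 1 at D2, and was above background in D2 replicate 2 alone (edgeR log2 fold change 1.80, adjusted p = 0.519). Neurofascin (comp293325), a neuronal adhesion protein, had 1, 2 and 2 against 16, 15 and 1 (2.25, adjusted p = 0.366 in edgeR). Protocadherin Fat 3 (comp284391), a giant cadherin, was under background in all 6 lanes, with 4, 11 and 16 against 10, 7 and 11. Of the cytoskeleton and muscle list, the cordon-bleu probe comp266794 (an actin-filament nucleator in mouse, annotated in the file as an apoptosis inhibitor) had 1, 1 and 2 raw counts at D1 and 11, 19 and 1 at D2 (2.67, adjusted p = 0.302 in edgeR). The other cordon-bleu probe, comp287546, had 5, 6 and 6 against 3, 11 and 1 (−0.42, adjusted p = 0.918 in edgeR), and it passed as lower with DESeq2's size factors although no D1 lane detected it. Myosin-7B (comp292635_13), a muscle myosin, was at a raw count of 1 in all 6 lanes. The remaining 2 annotated probes lay near background, the retinitis pigmentosa GTPase regulator comp287366, a protein of cilia (4, 3 and 7 against 3, 20 and 6), and the leucine-rich repeat probe comp292779 (1, 1 and 23 against 9, 11 and 2).

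The 17 unannotated probes outside the named set, comp293073_4 among them, had D1 means of up to 20.9 scaled counts and D2 means of up to 27.5. Of these, 14 were tested, 13 with a positive fold change, from −1.45 to 2.29 on the log2 scale, and the lowest adjusted p was 0.374 in edgeR. In some D1 lane 1 of the 17 was above background, and 11 were in some D2 lane. The exception on both counts was comp289786, singled out after its values were seen, with 21, 4 and 35 raw counts at D1 and 6, 12 and 2 at D2 (edgeR log2 fold change −1.45, SE 1.14, adjusted p = 0.473). Under TMM and under DESeq2's size factors it passed as lower. Across the whole list of 24 unannotated targets, 21 were tested, 20 were positive and none passed, with a median log2 fold change of 1.80. Only 2 of the 24 were above background in some D1 lane, so this median rests mostly on D1 counts under background.

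Lanes of like depth could be set side by side without scaling, a choice made after the values were seen. D1 replicate 3 and D2 replicate 1 had lane factors of 1.21 and 1.22, with 617 and 566 EF1A_A counts and 65 and 72 HCFC-1 counts. Between them RPS9 had 32 and 153 raw counts, comp293924 5 and 54, comp285297_12 9 and 58, Piwi-2 57 and 13, Piwi-1 39 and 19, and comp292635_9 286 and 154. The shallow lanes D1 replicate 2 and D2 replicate 3 had factors of 0.468 and 0.416. Between them RPS9 had 14 and 28 and Piwi-2 35 and 12, in the same direction as in the deep lanes, with 1 count of each pair above its lane's background. comp293073 had 1 and 9 and Piwi-1 17 and 3, all under background, so that no direction was measured there. comp293924 (1 and 2), comp292315 (1 and 2) and comp293992 (3 and 5) were also under background there, and comp292635_9 went the other way, with 21 and 58. These are pairs of single lanes with no replicate check.

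The level of the target panel, here the average log2(scaled count + 1) of the 38 tested targets, was 2.81, 3.03 and 2.62 in the D1 lanes and 3.62, 4.91 and 3.25 in the D2 lanes. All D2 lanes lay above all D1 lanes, by 1.11 in the mean (two-sided exact permutation p = 0.1, the lowest that 3 against 3 can give). The filter behind these 38 counts D2 and later lanes, so a target high only there could enter. With no filter the difference was 0.96. Of all targets on the panel, 36 were above background in no D1 lane, so the test does not measure a general rise. In D2 replicate 3 only 3 targets were above background, so its order against D1 rests mostly on counts under background. A lane with a count of 1 for every target would stand at 1.65 in D1 replicate 2 and 1.77 in D2 replicate 3, and at 0.862 to 1.14 in the other lanes, so the floor itself is higher in the shallow lanes. Without D2 replicate 2 the difference was 0.62. The difference rests on the scale of a lane, since size factors from DESeq2 gave −0.15 and TMM gave 0.52. Those factors are computed mostly from the targets, and the sum wholly so. The median log2 fold change of the 38 targets moved accordingly, from 1.45 to 1.06 with the summed targets, 0.33 under TMM and −0.38 with size factors from DESeq2. Under these 3 scalings 8 probes passed as higher and 2 as lower (summed targets), 8 and 1 (TMM) and 4 and 6 (size factors from DESeq2). comp293073, comp254454, comp293109 and comp293924 passed as higher under each of the 3. Each of them was under background in every D1 lane, so passing under several scalings does not measure the size of a rise. The D2 means of comp254454 and comp293109, 19.5 and 18.3 scaled counts, also lay under the mean D1 background of 22.9.

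**Figure D4:**
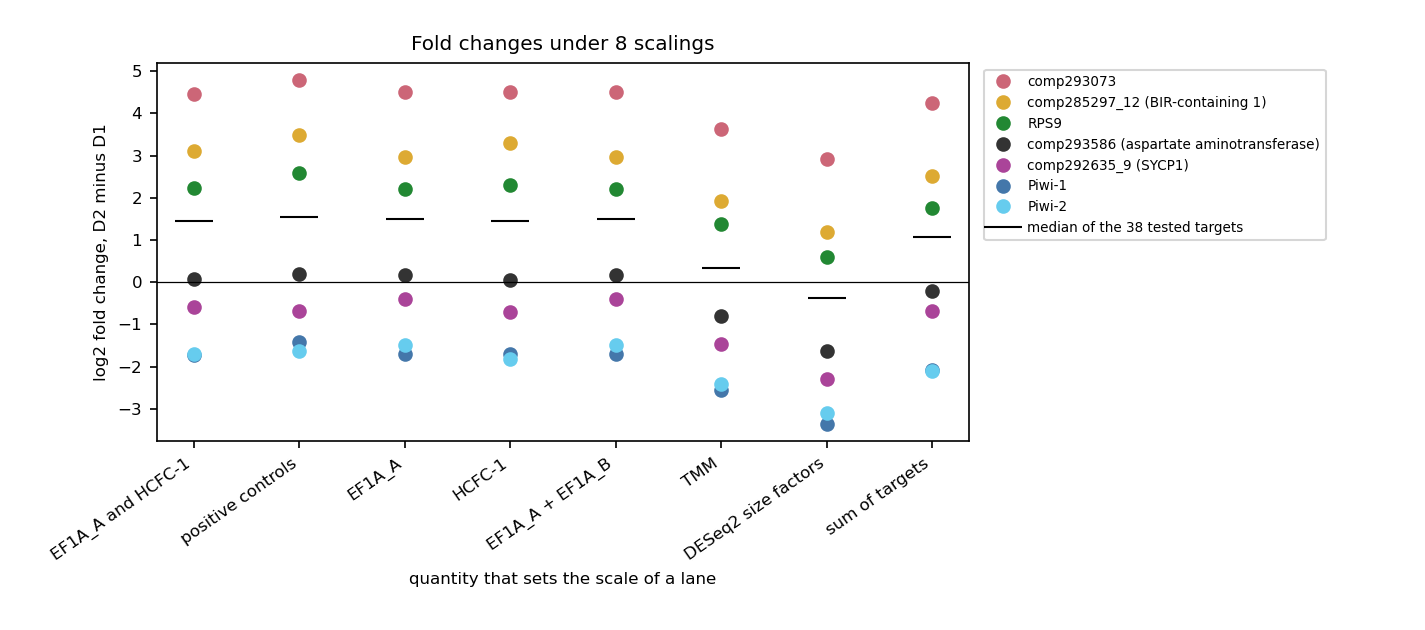
Points give the edgeR log2 fold change (D2 minus D1) of 7 probes when a lane is scaled by each of 8 quantities, and bars the median of the 38 tested targets. Apart from Piwi-1 and Piwi-2, the plotted probes keep their order under each scaling while the zero line moves, with comp293073 from 2.92 to 4.78, RPS9 from 0.61 to 2.58 and Piwi-1 from −3.35 to −1.42.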

How the data were processed

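RNA of whole lamprey embryos was counted on the NanoString nCounter. The authors deposited raw barcode counts per probe and lane, whole numbers with no value below 1, per the file headers and the values. Their other table holds deposited signal values, already normalized. All 294 of them for the 49 probes in these 6 lanes could be recovered within 2% by taking off the negative-control geometric mean and scaling to EF1A_A plus EF1A_B. That recipe is inferred from the values, and the software is not given in the sources used here. Column names give age and replicate for the 6 lanes. Target counts ran from 504 to 2956 per lane, which limits precision for probes near the background.

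Background, scaling and filter followed the rules given with the results. The fit took all 18 embryo lanes in edgeR 4.0.16 under R 4.3.3 (quasi-likelihood, robust, age as the factor, two-sided, Benjamini-Hochberg over 43 probes, threshold 0.05), and the common dispersion was 0.821. Each standard error is the size of the log2 fold change over the square root of F. limma 3.58.1 on log2(scaled count + 1), log2(scaled count + 10) and log2 signal, and DESeq2 1.42.0, were alternatives. The fit was first run on simulated data with known changes. Recovery was required there only at a spread smaller than that of these data and a fold larger than that of RPS9. It therefore does not show how well changes of the size seen here are found. A probe below background in every D1 lane entered a fold at the mean D1 background, which makes it a lower bound as regards D1 alone. D2 lanes under background entered the D2 mean at their scaled counts. The edgeR log2 fold changes rest on the counts and do not use the background. Named probes were every reference probe, every annotated target, and unannotated targets detected in all 3 lanes of an age, with an unadjusted p under 0.05, or among the 5 highest fold changes of those detected in 2 lanes of an age. The members, lists and tests were chosen with earlier results of these data known. Nothing in the labels says that the biological samples came from separate matings, so p-values measure the spread between these samples. No sequences were used here.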

Additional observations from a re-analysis of the deposited data

How the results depend on the processing

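The number of probes past the edgeR threshold for D2 vs D1, 1 on the scaling by EF1A_A and HCFC-1, was 2 with positive controls only, 2 with EF1A_A plus EF1A_B, 10 with the summed target probes, 9 with TMM and 10 with size factors from DESeq2. It was 7 with the negative control mean subtracted, 4 with the filter on the 6 lanes, 9 when only the 6 lanes were fitted (common dispersion 0.359) and 2 with the 12 lanes of the run. With the target probes only, which leaves RPS9 out, edgeR gave 0, and 8 had an unadjusted p under 0.05. With only the numbered lanes edgeR gave 0, and 9 had an unadjusted p under 0.05. DESeq2 called 6, limma 3 on the deposited signal values, and limma 0 with either pseudocount, with 5 and 4 at an unadjusted p under 0.05. With a replicate block, edgeR on the 6 lanes gave 17, at a lower common dispersion of 0.2285. The numbers were not taken as pairing the lanes. The deviations of same-numbered lanes from their age means correlated at 0.119, −0.022 and 0.089, and no lane correlated best with its own number. Such deviations also move with the depth of a lane, so these correlations cannot exclude a pairing. Leaving out 1 lane gave 0 to 2 calls, with 0 for each D1 lane and for D2 replicates 1 and 2 (2 to 9 at an unadjusted p under 0.05 in edgeR). Without both shallow lanes, a setting added after seeing the data, it was 0, with 7 at an unadjusted p under 0.05. The panel level turned to −0.15 with DESeq2's size factors, and comp292169 passed as lower there (log2 fold change −1.78). The cause was not tested. Of the 29 named probes tested, 10 had the other sign under DESeq2's size factors, 7 under TMM, 5 under the sum of the target probes and 1 or 2 under each other scaling. The panel level was otherwise positive under all alternatives, and the mean number of detected targets was higher at D2 with both other backgrounds and every lane left out. In all D1 lanes and D2 replicate 3, 12 to 17 of the 43 targets stood at a count of 1, against 3 in each of the other D2 lanes. D1 replicate 3 was about as deep as D2 replicate 1, with 2384 and 2295 target counts, and had 13 targets at a count of 1.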
